A study of Mus musculus with 3 samples.

Results

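The 51 genes described here were 22 genes of S phase, the part of the cell cycle in which DNA is copied, and 29 genes of G2 phase and mitosis (G2/M), among the 32285 genes of the deposited count matrices. They were chosen by name for their known roles, with earlier results of these data known, and all 51 had at least 1 unique molecular identifier (UMI, 1 counted transcript) in each of the 3 libraries. A cell that enters the cycle first switches on E2F factors, which drive the genes for loading and firing replication origins, for making nucleotides and for copying DNA. In resting cells the DREAM complex holds the mitotic genes down through CHR elements. Later in the cycle its MuvB core, joined by B-MYB and FOXM1, drives them, and the promoters often hold CCAAT boxes as well. The anaphase-promoting complex then destroys many of the proteins. In the embryonic kidney, nephron progenitors under the capsule and the tips of the ureteric bud are known to divide while podocytes leave the cycle, so the level of these genes in a cell mixture follows both the share of cycling cells and the level in each of them.

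To ask how these genes differed across kidney cells and groups, single-cell RNA sequencing of whole kidneys from C57BL/6 mouse embryos at E15.5 (E, embryonic day) was used, with 1 library for each of 3 groups. All 3 groups carried Wt1 GFPCre/+, a knock-in that places Cre recombinase under the Wt1 promoter and inactivates that Wt1 allele, so the controls also had 1 intact Wt1 allele. Enl-WT embryos were Enl +/+, and Enl-T1 embryos were Enl flox-T1/+, in which Cre switches on a mutant of ENL, a reader of acylated histones that is encoded by *Mllt1*. Enl-T1 TDI-11055 embryos, called treated Enl-T1 below, had the Enl-T1 genotype, and their mothers were dosed orally with 100 mg/kg TDI-11055, a small molecule that blocks the acyl-binding pocket of ENL, once daily between E10.5 and E14.5. Cre driven by Wt1 is known to act in precursors of the nephron and the stroma, and the ureteric bud and the endothelium lie outside this lineage. Recombination was not measured by cell type here, and whole embryos and their mothers were exposed to the compound. A library pooled the kidneys of more than 1 embryo with no map from cells to embryos, and the labels gave no sex. Each group therefore had 1 library, no test between groups was possible, and every interval given below is at 95% and covers the error of counting alone.

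To show the sequences through which these genes are known to be controlled, windows around the RefSeq start sites of members (build GRCm38.p6) were taken. A window ran from 250 bases before to 50 bases after the start, 300 bases in all. Only matches that lay wholly within the 250 bases before the start were counted, in members and in all genes alike. A window was found for 19 of 22 S-phase members (20 windows) and for 25 of 29 G2/M members (25 windows). The 5 stretches below end at the base before the start site. *Mki67* and *Cks2* were chosen because they had the lowest and the highest ratio of the G2/M members between Enl-T1 and Enl-WT in nephron progenitors. *Top2a* was chosen as a second G2/M member that was lower in Enl-T1 in every main cell class. *Mcm5* was chosen as an S-phase member of the same kind, and *Rrm2* as an S-phase member that was higher with TDI-11055 in every main cell class. Capitals mark the CCAAT box (CCAAT), the CHR element (TTTGAA or TTCGAA) and the E2F element (TTTCCCGC, TTTCGCGC, TTTGCCGC or TTTGGCGC) on either strand.
Mki67: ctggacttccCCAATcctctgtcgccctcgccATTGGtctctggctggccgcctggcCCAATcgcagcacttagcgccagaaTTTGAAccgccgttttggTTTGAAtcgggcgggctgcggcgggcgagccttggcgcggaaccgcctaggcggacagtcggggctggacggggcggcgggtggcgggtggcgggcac
Cks2: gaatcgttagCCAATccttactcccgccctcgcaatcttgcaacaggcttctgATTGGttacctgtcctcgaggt
Top2a: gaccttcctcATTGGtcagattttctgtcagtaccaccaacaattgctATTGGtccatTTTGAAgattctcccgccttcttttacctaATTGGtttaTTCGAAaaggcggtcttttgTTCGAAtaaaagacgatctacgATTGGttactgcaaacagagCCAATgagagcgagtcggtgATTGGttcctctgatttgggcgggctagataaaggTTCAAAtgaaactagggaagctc
Mcm5: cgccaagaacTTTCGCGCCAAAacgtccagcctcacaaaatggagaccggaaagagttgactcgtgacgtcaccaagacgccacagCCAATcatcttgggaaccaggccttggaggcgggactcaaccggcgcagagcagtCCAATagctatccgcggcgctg
Rrm2: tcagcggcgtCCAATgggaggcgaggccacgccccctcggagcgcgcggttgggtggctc
The stretches lie at chr7:135716380-135716577 (minus strand) for *Mki67*, chr13:51645157-51645231 (plus) for *Cks2*, chr11:99024190-99024426 (minus) for *Top2a*, chr8:75109346-75109508 (plus) for *Mcm5* and chr12:24708194-24708253 (plus) for *Rrm2*, and the first capital stretch of *Mcm5* is 2 E2F matches that overlap on opposite strands. A CCAAT box was found in 84.0% of G2/M windows and 75.0% of S-phase windows, against 33.8% of the 32851 windows of the same length in the reference. The CHR element was found in 7 of 25 G2/M and 4 of 20 S-phase windows against 17.1% of all windows, each time together with a CCAAT box, a pair that 6.02% of all windows held. The E2F element was found in 6 of 20 S-phase windows and 1 of 25 G2/M windows against 1.86% of all windows. These are matches of letters within the 250 bases before the start in each window. Matches after the start were not counted, and none was measured as a binding site.

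The Enl-WT, Enl-T1 and treated Enl-T1 libraries held 7186, 6575 and 6453 barcodes, of which 5233, 4144 and 2754 had 1000 to 6000 detected genes and at most 10% mitochondrial UMIs and were kept. Depth differed widely between the libraries, with a median of 5090, 9391 and 16932 UMIs per kept cell. The upper limit on genes left out 55, 309 and 577 barcodes that passed the mitochondrial limit, so it took most from the deepest library. Cells with UMIs of *Xist* and none of the Y-linked genes made up 26.5%, 73.3% and 35.1% of the kept cells, so the sex of the embryos differed between the libraries along with the group, and the 2 cannot be told apart beyond the values in cells of 1 sex given below. In addition, 739 kept cells (26.8%) of the treated Enl-T1 library had under 1% mitochondrial UMIs, against 46 (0.879%) in Enl-WT and 120 (2.90%) in Enl-T1. Between 10 and 14 barcodes were shared by any pair of libraries, 5 to 8 of them kept in both. Over all kept cells the S-phase members summed to 1965.6, 1617.1 and 2224.0 CPM (the gene's share of all UMIs, scaled to the same total) in Enl-WT, Enl-T1 and treated Enl-T1, and the G2/M members summed to 3825.7, 2682.3 and 2366.3 CPM. The S-phase sum was thus lowest in Enl-T1 and the G2/M sum was lowest in treated Enl-T1.

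To compare cells at 1 depth, each cell was thinned to 2000 UMIs, and a cell with UMIs of at least 3 S-phase members was called S-high and one with UMIs of at least 3 G2/M members G2/M-high. These states are ranges of a count and not cell types. Cell classes were rebuilt by clustering without cell cycle genes and named from markers with the ending "-like", since the deposited files held no annotation. In Enl-WT the S-high share ran from 70.0% in ureteric tip-like cells, 66.8% in NP2-like cells (committing nephron progenitors) and 61.7% in Foxd1 stroma-like cells down to 7.41% in ureteric trunk-like cells and 1.67% in podocyte-like cells. The G2/M-high share ran from 76.5% in NP2-like, 64.7% in ureteric tip-like and 62.6% in intermediate-like cells to 11.0% in urothelium-like and 2.78% in podocyte-like cells. NP1-like cells, the uncommitted *Six2* and *Cited1* progenitors, stood sixth of 14 classes by the S-high share (45.7%) and eighth by the G2/M-high share (32.0%).

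**Figure D1:**
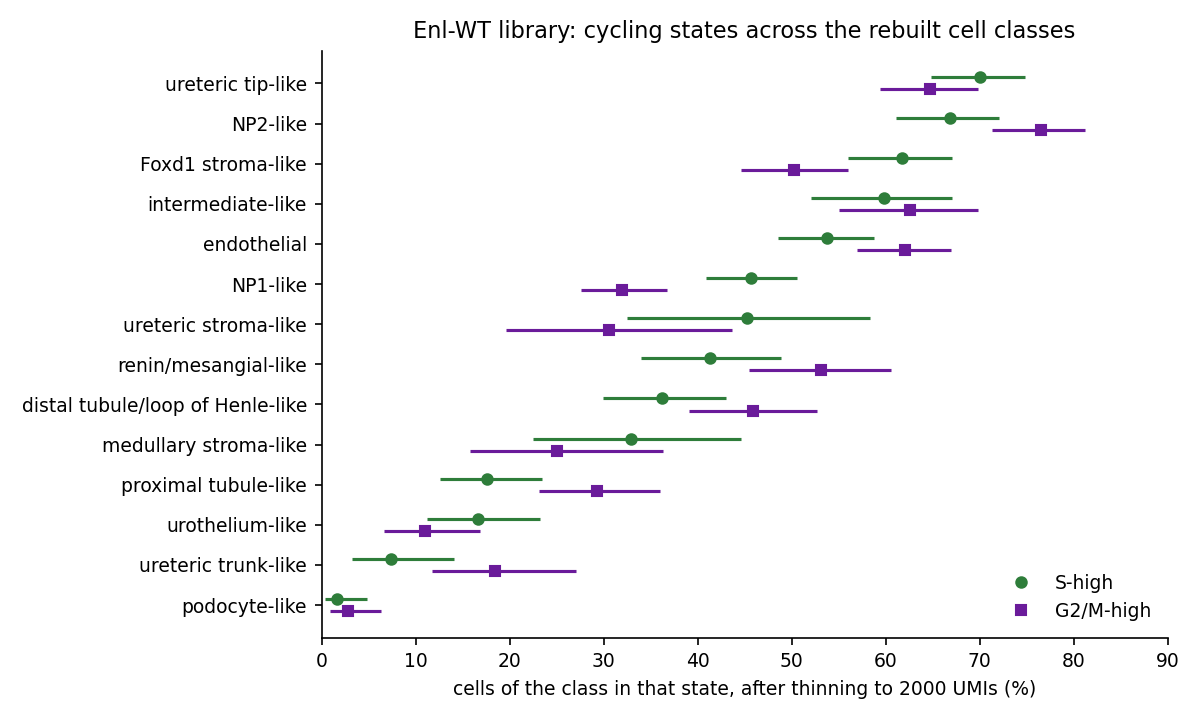
Share of S-high cells (green circles) and G2/M-high cells (purple squares) in 14 rebuilt cell classes of the Enl-WT library, in percent after thinning to 2000 UMIs, with exact binomial 95% intervals as lines. Ureteric tip-like and NP2-like cells lie above 60% in both states and podocyte-like cells lie under 3% in both.

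Most neighbours in these orders could not be told apart. Among the 14 classes, the S-high shares of neighbours were separated beyond counting error only between endothelial (53.8%) and NP1-like cells, between medullary stroma-like (32.9%) and proximal tubule-like cells (17.6%), and on both sides of ureteric trunk-like cells. For the G2/M-high share the separated neighbours were NP2-like and ureteric tip-like cells, distal tubule or loop of Henle-like (45.9%) and NP1-like cells, and urothelium-like and podocyte-like cells. The 2 orders were not alike, since NP1-like and Foxd1 stroma-like cells (50.3% G2/M-high) had more S-high than G2/M-high cells while proximal tubule-like (17.6% against 29.3%) and ureteric trunk-like cells (7.41% against 18.5%) had more G2/M-high than S-high cells.

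Podocyte-like cells gave the background that free RNA and low counts can leave, with 3 of 180 cells S-high (1.67%, exact binomial interval 0.345 to 4.79) and 5 of 180 G2/M-high (2.78%, 0.908 to 6.36) in Enl-WT, at a median depth of 6508 UMIs before thinning against 4649 in NP1-like cells. *Cdc6*, which loads the replicative helicase onto origins, and *Aurkb*, the kinase of the chromosomal passenger complex, had 0 UMIs in the Enl-WT podocyte-like cells, and *Ccne2* (cyclin E2) and *E2f8* (an E2F family repressor) had 1 each. The podocyte-like cells of the other libraries were few (25 and 26), so they were not used for comparison.

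To see which members mark which stage, the share of cells with a UMI of each member was set out over 4 states (neither, S-high only, both, G2/M-high only), with the member itself left out of the definition of the state and with all kept cells of at least 1% mitochondrial UMIs. The median G2/M member had UMIs in 1.93% of Enl-WT cells in neither state, in 3.34% of cells that were S-high only, in 23.6% of cells in both states and in 25.7% of cells that were G2/M-high only. The median S-phase member had UMIs in 5.08%, 19.5%, 25.8% and 8.09% of the cells in these states. The S-phase members were therefore seen mainly in the S-high states and the G2/M members in the G2/M-high states, as they were in Enl-T1 (G2/M members 1.38%, 2.98%, 23.2% and 29.7%) and treated Enl-T1 (1.87%, 3.33%, 19.5% and 19.1%).

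Within the G2/M list the members were graded. *Cdc20*, which activates the anaphase-promoting complex, had UMIs in 27.3% of the Enl-WT cells that were G2/M-high only and 1.22% of those that were S-high only. *Ccnb2* (cyclin B2) was seen in 31.4% of the cells that were G2/M-high only, 14.3% of those in both states and 5.71% of those that were S-high only, and *Ccnb1* (cyclin B1, the partner of Cdk1 at entry into mitosis) in 24.3%, 18.4% and 2.03%. *Top2a*, the topoisomerase that untangles copied DNA (48.5%, 73.6% and 14.8%), *Mki67*, which coats mitotic chromosomes (58.6%, 67.2% and 11.3%), and *Smc4*, a condensin subunit (53.8%, 62.7% and 26.2%), were instead seen most often in cells in both states. In Enl-WT 15 G2/M members were highest in cells that were G2/M-high only and 14 in cells in both states, and of the S-phase members 5 were highest in cells that were S-high only and 17 in cells in both states. *Pcna*, the sliding clamp of DNA polymerases, was seen in 34.6% of the cells that were S-high only and 47.8% of those in both states, and *Slbp*, which binds histone messenger RNA, was the S-phase member seen most in cells of neither state (16.2%).

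**Figure D2:**
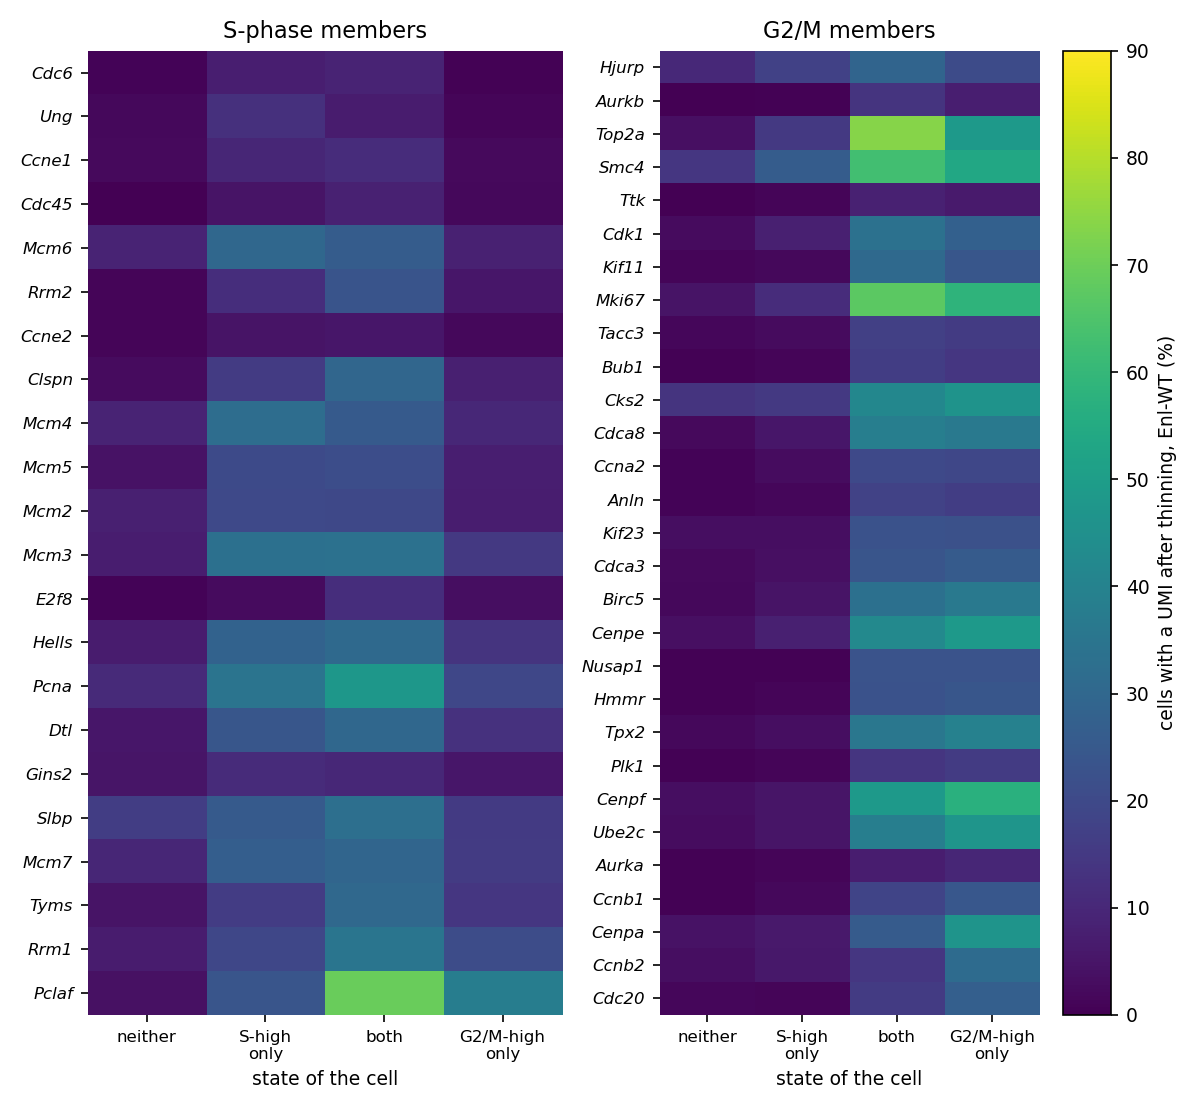
Share of Enl-WT cells with a UMI of each member after thinning (colour, percent) in 4 states of the cell (columns), with S-phase members on the left and G2/M members on the right. Members are ordered by their share in G2/M-high only cells divided by the summed shares in S-high only, both and G2/M-high only cells. *Cdc20*, *Ccnb2* and *Cenpa* are brightest in cells that were G2/M-high only, and *Top2a*, *Mki67* and *Smc4* in cells in both states.

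To compare the groups, 4 classes with enough cells in every library were used, with 426, 198 and 244 NP1-like cells in Enl-WT, Enl-T1 and treated Enl-T1, 779, 1218 and 196 stroma cells, 1369, 862 and 798 ureteric epithelium cells and 395, 257 and 116 endothelial cells. The defining markers of NP1-like cells were found in all 3 libraries, at levels that differed between them. *Six2* was at 216.8, 129.2 and 207.5 CPM against 18.1 CPM in other cells, and *Cited1* at 514.8, 192.7 and 317.2 CPM against 21.4. *Crym* was at 342.1, 123.0 and 257.3 CPM against 18.8, and *Meox1* at 66.3, 68.5 and 92.1 CPM against 7.56. Endothelial *Pecam1* was at 758.0, 496.3 and 413.2 CPM against 2.03 CPM. After thinning, the S-high share in stroma was 379 of 758 cells in Enl-WT. It was 25.5% in untreated and 48.7% in treated Enl-T1, a difference of -24.5 percentage points between Enl-T1 and Enl-WT (interval -28.9 to -20.1) and of 23.2 points between treated and untreated Enl-T1 (15.6 to 30.9). In ureteric epithelium it was 44.1%, 28.9% and 45.2%, with differences of -15.2 points (-19.3 to -11.1) and 16.2 points (11.5 to 20.9). In endothelial cells it was 53.8%, 29.6% and 41.4%, with differences of -24.2 points (-31.7 to -16.3) and 11.8 points (0.942 to 22.8). The S-high share was thus lower in Enl-T1 than in the other libraries in these 3 classes, of which 2 lie outside the Wt1 lineage.

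In NP1-like cells the S-high share was 45.7%, 38.4% and 42.2%, and the differences of -7.35 points (-15.7 to 1.28) and 3.83 points (-5.69 to 13.2) were within counting error. Their sub-clusters went different ways: the S-high share was 54.8% (48.8 to 60.7), 38.9% (30.5 to 47.8) and 46.4% (38.0 to 55.0) in the larger one and 27.7% (20.5 to 35.8), 37.3% and 36.5% in the smaller one, where the intervals overlapped. The G2/M-high share of NP1-like cells was 32.0%, 33.3% and 30.3%, with differences of 1.34 points (-6.69 to 9.65) and -3.01 points (-12.1 to 5.99). The G2/M-high values varied with the cells used. Among NP1-like cells of at most 5% mitochondrial UMIs the share was 51.9%, 36.5% and 33.5%, a difference of -15.4 points between Enl-T1 and Enl-WT. Among the others it was 29.1%, 31.5% and 23.4%. Such subsets hold fewer cells and no interval is given for their differences. Whether they depart from the result in all NP1-like cells was not tested. The median mitochondrial share of NP1-like cells was 6.28%, 5.41% and 4.60%, and its part in the result was not tested. Among male cells, 44.6% of the 426 Enl-WT and 13.1% of the 198 Enl-T1 NP1-like cells, the G2/M-high difference between Enl-T1 and Enl-WT was -11.2 points. No interval is given for this small subset either, and its departure from the result in all NP1-like cells was not tested. After thinning to 4000 UMIs, which leaves out the shallower cells, the G2/M-high difference in NP1-like cells was -7.45 points. The S-high difference between Enl-T1 and Enl-WT was then -21.3 points in NP1-like cells, -39.2 in stroma and -23.2 in ureteric epithelium. In Enl-WT the cells in neither state were shallower than those in both. Their median depths were 4174 and 6599 UMIs in NP1-like cells, 3320 and 5508 in stroma and 4252 and 6290 in ureteric epithelium. This depth therefore changes the mix of Enl-WT cells, and the part of that in the differences was not tested.

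The G2/M-high share of stroma was 46.8%, 27.5% and 45.6%, with differences of -19.4 points (-23.8 to -14.9) and 18.2 points (10.6 to 25.9). In ureteric epithelium it was 43.1%, 29.3% and 32.0%, with differences of -13.8 points (-17.9 to -9.71) and 2.73 points (-1.79 to 7.25), so that treated Enl-T1 was 11.1 points under Enl-WT there (a difference of -11.1, -15.3 to -6.83). In endothelial cells it was 62.1%, 35.8% and 52.6%, with differences of -26.3 points (-33.9 to -18.3) and 16.8 points (5.46 to 27.8). In male endothelial cells alone the difference between treated and untreated Enl-T1 was 1.76 points (-22.6 to 25.8) for the G2/M-high share and -12.4 points (-34.5 to 10.8) for the S-high share. Both were within counting error, and the G2/M-high interval also included the 16.8 points of all endothelial cells. Male cells made up only 13.2% of the 257 Enl-T1 and 30.2% of the 116 treated Enl-T1 endothelial cells. Without thinning the endothelial difference between Enl-T1 and Enl-WT was 1.82 points and the ureteric one 7.91 points, in cells that were sequenced more deeply in Enl-T1. Cells at the limit, with 2 or 3 members, made up 10.1% to 37.0% of a class in these comparisons.

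**Figure D3:**
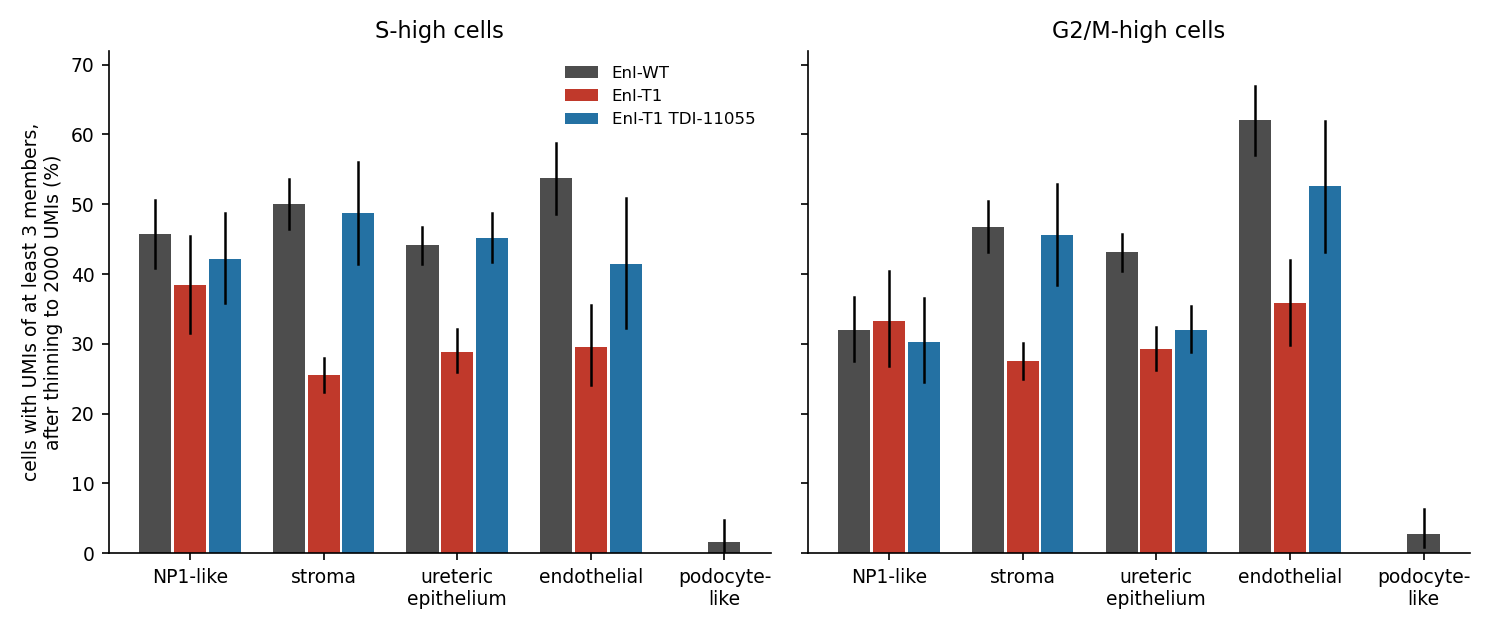
Percent of cells with UMIs of at least 3 S-phase members (left) or G2/M members (right) after thinning to 2000 UMIs, in 4 cell classes and 3 libraries, with Enl-WT podocyte-like cells as background and exact binomial 95% intervals as lines. In stroma, ureteric epithelium and endothelial cells the Enl-T1 bar is the lowest of the 3 in both panels, and in NP1-like cells the 3 intervals overlap.

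Before thinning, the S-high shares were 73.9%, 91.9% and 99.2% in NP1-like cells, 67.9%, 64.0% and 90.3% in stroma, 70.5%, 80.6% and 96.2% in ureteric epithelium and 76.7%, 72.8% and 83.6% in endothelial cells. The makeup of a class could also differ between libraries. Weighted to the sub-clusters of Enl-WT, the S-high share of stroma was 31.2% in Enl-T1 and 43.4% in treated Enl-T1 and that of ureteric epithelium 35.1% and 42.3%. The G2/M-high share so weighted was 34.9% and 44.6% in stroma, and in ureteric epithelium it was 34.6% in Enl-T1 and lower than that in treated Enl-T1. Within sub-clusters the S-high share was lower in Enl-T1 than Enl-WT in 7 of 8 of stroma and 5 of 6 of ureteric epithelium, and the G2/M-high share in 6 of 8 and 4 of 6. With TDI-11055 the S-high share was higher than in untreated Enl-T1 in 7 of 8 and 4 of 6. The G2/M-high share was higher in 7 of 8 of stroma but lower in 6 of 6 of ureteric epithelium, where the pooled share was higher. In NP2-like cells the S-high share was 66.8%, 62.2% and 65.9% and the G2/M-high share 76.5%, 54.4% and 74.9%, but 193 of the 257 NP2-like cells of treated Enl-T1 had under 1% mitochondrial UMIs, and without such cells the G2/M-high shares were 76.5%, 52.9% and 58.7%.

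To compare the members one by one, UMIs were summed per class and library and given as CPM. A gene entered a comparison at 5 CPM or more, as the mean of both libraries, which all 51 members did in the 4 classes, and was counted as higher or lower at a ratio of 1.5 or more. The median gene of all that entered was itself lower in Enl-T1 than Enl-WT, by a log2 ratio of -0.33 in NP1-like cells, -0.30 in stroma, -0.30 in ureteric cells and -0.31 in endothelium, so the members are set against these medians. The share of UMIs from ribosomal protein genes was 16.5%, 26.7% and 27.8% of the kept cells of the 3 libraries, and its part was not tested.

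In NP1-like cells the S-phase members summed to 2139.3 CPM in Enl-WT. Their sum was 1763.3 CPM in untreated and 2085.7 CPM in treated Enl-T1. In Enl-T1 against Enl-WT their median log2 ratio was -0.40, with a range of -1.25 to 0.35, beside -0.33 for all genes. No S-phase member was higher and 7 of 22 were lower, against 7.68% higher and 33.7% lower among the 9933 genes, so the count was close to that of all genes. *E2f8* was at 33.4 CPM in Enl-WT and 14.0 in Enl-T1, a log2 ratio of -1.25 (-1.88 to -0.65). *Dtl*, a substrate receptor of the ubiquitin ligase that destroys licensing factors during S phase, was at 152.4 and 73.0 CPM, a log2 ratio of -1.06 (-1.33 to -0.79). The helicase subunit *Mcm2* (83.4 and 42.5 CPM, -1.33 to -0.62 around -0.97) and the checkpoint adaptor *Clspn* (95.6 and 48.7 CPM, also -0.97) were next. At the other end *Pclaf*, which binds the Pcna clamp, was at 263.7 and 330.1 CPM, a log2 ratio of 0.32 (0.17 to 0.48) and the one S-phase member whose interval lay above equal levels. *Ccne2* was at 14.9 and 19.0 CPM (0.35, -0.32 to 1.04) and *Hells*, a chromatin remodeller, at 110.9 and 121.7 CPM (0.13). *Pcna* was at 168.1 and 118.8 CPM (-0.50, -0.73 to -0.27), *Mcm5* at 77.5 and 47.5 CPM (-0.71, -1.06 to -0.36) and *Mcm7* at 160.9 and 144.0 CPM (-0.16), so the subunits of 1 helicase differed in their ratios.

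The G2/M members of NP1-like cells summed to 3457.8 CPM in Enl-WT (interval 3380.9 to 3536.1), 2740.0 in Enl-T1 (2674.5 to 2806.7) and 1878.0 in treated Enl-T1 (1841.3 to 1915.3). Although the sum was lower in Enl-T1, the median member was not: its log2 ratio to Enl-WT was -0.03, with a range of -1.62 to 0.64, and 19 of 29 members stood above the median of all genes. Of the 29, 8 were lower and 1 was higher, against 33.7% lower and 7.68% higher among all genes, so the lower count was not above that of all genes. Both lists together gave 16 members past the limit in NP1-like cells, and 27 among cells of at most 5% mitochondrial UMIs, where the share of all genes was not counted. *Mki67* was at 366.0 CPM in Enl-WT and 118.8 in Enl-T1, a log2 ratio of -1.62 (-1.82 to -1.43). *Cenpe*, the motor of the kinetochore (221.8 and 98.6 CPM, -1.17, -1.40 to -0.94), *Kif11*, the motor that pushes spindle poles apart (97.4 and 47.0 CPM, -1.05, -1.39 to -0.72), and *Smc4* (332.7 and 178.7 CPM, -0.90) followed, and *Top2a* was at 484.1 and 270.7 CPM (-0.84, -0.98 to -0.70). *Cks2*, a small subunit that binds cyclin-dependent kinases, was the member counted as higher, at 152.8 and 238.9 CPM (0.64, 0.45 to 0.84). *Cdk1*, the mitotic kinase, was at 63.1 and 87.5 CPM (0.47, 0.16 to 0.79), *Birc5* (survivin, of the passenger complex) at 87.0 and 118.0 CPM (0.44, 0.17 to 0.71) and *Nusap1*, a spindle protein, at 66.7 and 90.4 CPM (0.44, 0.13 to 0.75). *Ccnb1* was at 60.4 and 64.0 CPM (0.08, -0.26 to 0.43). The interval of 10 members lay below equal levels and that of 6 above, so the G2/M list did not move as 1 block in NP1-like cells. NP1-like cells were only a part of the nephron lineage. Over the whole lineage the G2/M members summed to 3834.3, 3168.7 and 2658.3 CPM and the S-phase members to 2038.7, 2081.1 and 2368.9 CPM. In the cluster led by *Snap91* and *Fgf9* the G2/M sum was 5121.6 CPM in Enl-WT and 3081.5 in Enl-T1. In that led by *Prrx1* and *C1qtnf12* it was 5622.7 and 3838.6 CPM. In distal tubule or loop of Henle-like cells it was 3932.9 and 4186.6 CPM.

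In female cells alone the median G2/M log2 ratio in NP1-like cells was 0.31, and in cells of at most 5% mitochondrial UMIs it was -0.85. Female cells made up 24.9%, 78.8% and 43.4% of the NP1-like cells of Enl-WT, Enl-T1 and treated Enl-T1. The share of NP1-like cells with a UMI of *Mki67* after thinning was 24.6% in Enl-WT (104 of 422), 10.1% in Enl-T1 (20 of 198) and 12.3% in treated Enl-T1 (30 of 244), against 3.89% in Enl-WT podocyte-like cells, and 33.6%, 35.4% and 36.1% before thinning. For *Top2a* it was 27.3%, 25.8% and 11.5% (35.0%, 40.4% and 40.6% before thinning). The shares before and after thinning put the libraries in different orders.

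**Figure D4:**
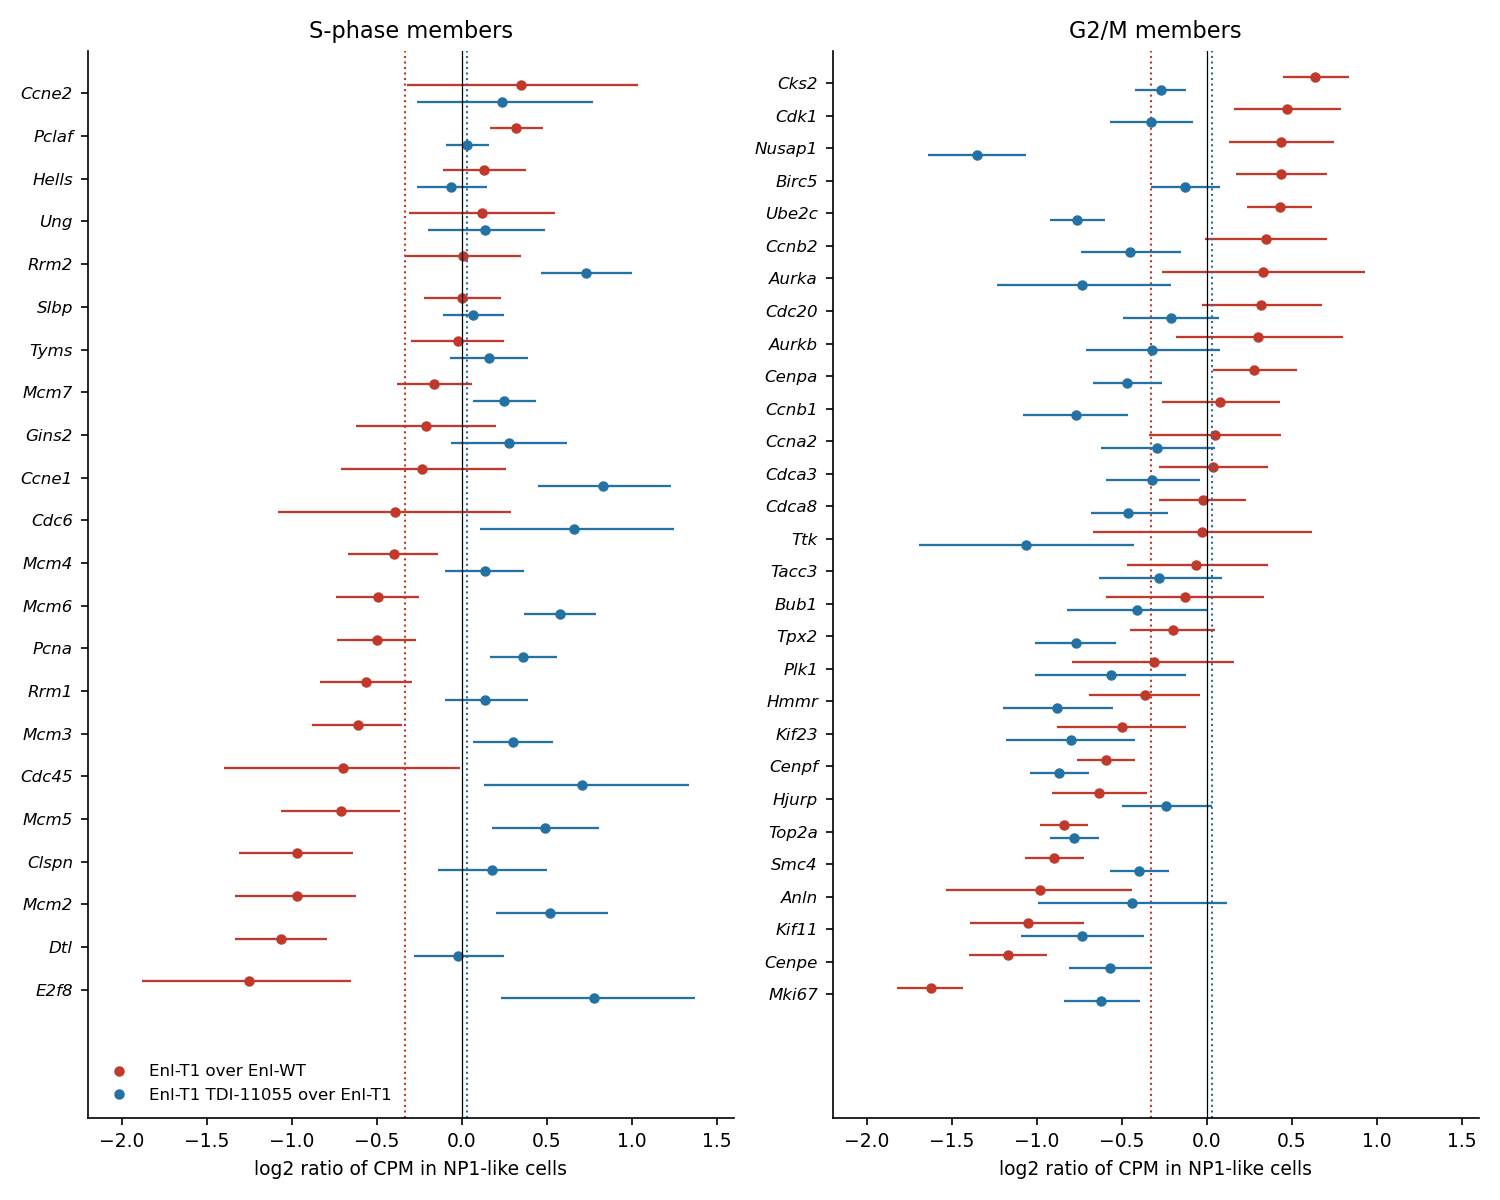
Log2 ratio of CPM of each S-phase member (left) and G2/M member (right) in NP1-like cells, Enl-T1 over Enl-WT in red and treated over untreated Enl-T1 in blue, with exact 95% counting intervals as lines and the medians of all genes as dotted lines. Red points run from -1.25 (*E2f8*) and -1.62 (*Mki67*) to 0.35 (*Ccne2*) and 0.64 (*Cks2*), and all 29 blue G2/M points lie left of 0.

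In treated against untreated Enl-T1 the lists moved apart in NP1-like cells. The median S-phase log2 ratio was 0.27, with a range of -0.06 to 0.83, and the median G2/M log2 ratio was -0.47, with a range of -1.35 to -0.13, beside 0.03 for all genes. Of the S-phase members 5 were higher and 0 lower, and of the G2/M members 0 were higher and 12 lower, against 7.77% higher and 6.90% lower among 9700 genes. The S-phase members counted as higher included *Ccne1*, cyclin E1 of the G1 to S step (29.3 CPM in Enl-T1 and 52.3 in treated Enl-T1, 0.83, 0.45 to 1.23), *E2f8* (14.0 and 24.1 CPM, 0.78, 0.23 to 1.37) and *Rrm2*, the regulated subunit of ribonucleotide reductase (64.4 and 107.0 CPM, 0.73, 0.47 to 1.00). *Hells* (121.7 and 117.2 CPM, -0.06), *Dtl* (73.0 and 72.1 CPM, -0.02) and *Pclaf* (330.1 and 337.9 CPM, 0.03) were the S-phase members with the lowest ratios, and each of these was within counting error of equal levels. *Pcna* was at 118.8 and 152.6 CPM (0.36, 0.17 to 0.56) and *Mcm5* at 47.5 and 66.6 CPM (0.49, 0.18 to 0.81).

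Among the G2/M members *Nusap1* was at 90.4 CPM in Enl-T1 and 35.5 in treated Enl-T1, a log2 ratio of -1.35 (-1.64 to -1.06). *Ttk*, a kinase of the spindle checkpoint (18.2 and 8.68 CPM, -1.06, -1.69 to -0.43), and *Hmmr*, a spindle assembly protein (62.3 and 34.0 CPM, -0.88, -1.20 to -0.55), were next. *Top2a* was at 270.7 and 158.1 CPM (-0.78, -0.92 to -0.63), *Mki67* at 118.8 and 77.5 CPM (-0.62, -0.84 to -0.39), *Ccnb1* at 64.0 and 37.5 CPM (-0.77, -1.08 to -0.46) and *Cdk1* at 87.5 and 69.8 CPM (-0.33, -0.57 to -0.08). The smallest difference was in *Birc5* (118.0 and 108.1 CPM, -0.13, -0.33 to 0.08), and *Cdc20* was at 67.7 and 58.5 CPM (-0.21). All 29 G2/M members lay below the median of all genes, and 19 of 22 S-phase members lay above it. The 17 members past the limit in this comparison became 9 with the cells of over 6000 genes added and 11 when cells were clustered on all variable genes. The share of all genes was not counted in these 2 settings. Set against Enl-WT, the medians of treated Enl-T1 were 0.07 for S-phase and -0.69 for G2/M members beside -0.28 for all genes.

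In stroma both lists were lower in Enl-T1, and with TDI-11055 they parted. The S-phase members summed to 2224.7, 1678.6 and 2837.6 CPM and the G2/M members to 5214.0, 3128.8 and 3076.1 CPM. In Enl-T1 against Enl-WT 1 S-phase member was higher and 9 were lower, and 0 G2/M members were higher and 16 lower, against 7.26% higher and 29.9% lower among all genes, with medians of -0.49 and -0.63. *Mki67* was at 543.0 and 154.8 CPM (-1.81, -1.91 to -1.71) and *Dtl* at 118.6 and 55.2 CPM (-1.10, -1.29 to -0.92), the lowest ratios of their lists. *Ccne2* (19.8 and 31.1 CPM, 0.66, 0.28 to 1.05) was the member counted as higher, and *Cks2* was level (255.0 and 252.0 CPM, -0.02). *Top2a* was at 625.4 and 393.7 CPM (-0.67), *Cdk1* at 172.3 and 132.6 CPM (-0.38), *Ccnb1* at 93.0 and 62.0 CPM (-0.58), *Pcna* at 182.0 and 131.4 CPM (-0.47) and *Mcm5* at 80.7 and 45.7 CPM (-0.82).

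In treated against untreated Enl-T1 stroma, 17 of 22 S-phase members were higher and 0 lower, while 1 of 29 G2/M members was higher and 1 lower, against 12.0% higher and 11.0% lower among all genes. The medians were 0.78 and -0.03 beside 0.05. *Ung*, which removes uracil from DNA, was at 11.4 and 39.2 CPM (1.78), *Rrm2* at 48.7 and 156.9 CPM (1.69) and *Mcm5* at 45.7 and 108.2 CPM (1.24). The large subunit *Rrm1* (76.0 and 101.2 CPM) and *Slbp* (183.7 and 244.9 CPM) had the lowest S-phase ratios, both 0.41, and the intervals of all 22 S-phase members lay above equal levels. In the G2/M list *Cenpa*, the centromeric histone, was at 119.3 and 179.8 CPM (0.59) and *Cenpf*, a kinetochore protein, at 183.2 and 115.5 CPM (-0.67). *Mki67* was at 154.8 and 108.8 CPM (-0.51), *Top2a* at 393.7 and 284.4 CPM (-0.47), *Cdk1* at 132.6 and 159.6 CPM (0.27), *Ccnb1* at 62.0 and 66.0 CPM (0.09) and *Pcna* at 131.4 and 216.3 CPM (0.72).

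In ureteric epithelium, which is outside the Wt1 lineage, the S-phase sum was 2041.5, 1450.7 and 2222.0 CPM and the G2/M sum 3828.4, 2541.2 and 2014.2 CPM. In Enl-T1 against Enl-WT 0 members were higher, 11 S-phase and 12 G2/M members were lower, against 6.40% higher and 27.7% lower among all genes, and the medians were -0.59 and -0.49. *Mki67* was at 402.0 and 118.4 CPM (-1.76) and *Dtl* at 84.9 and 36.7 CPM (-1.21), while *Nusap1* was at 81.4 and 105.3 CPM (0.37) and *Ccne2* had the highest S-phase ratio (0.20). *Top2a* (432.6 and 262.2 CPM, -0.72), *Cdk1* (123.0 and 100.3 CPM, -0.29), *Ccnb1* (67.9 and 52.8 CPM, -0.36), *Pcna* (183.9 and 126.0 CPM, -0.55) and *Mcm5* (69.0 and 40.0 CPM, -0.78) were all at lower levels in Enl-T1. In treated against untreated Enl-T1 9 S-phase members were higher and 0 lower, and 0 G2/M members were higher and 10 lower, against 7.21% higher and 9.72% lower among all genes, with medians of 0.55 and -0.17 beside 0.02. *Ung* was at 15.4 and 45.0 CPM (1.55), *Mcm5* at 40.0 and 82.5 CPM (1.04) and *Pcna* at 126.0 and 194.9 CPM (0.63), and *Ccne2* had the lowest S-phase ratio (16.7 and 14.6 CPM, -0.19). *Kif23*, the motor of the midzone in cytokinesis, was at 75.3 and 31.0 CPM (-1.28), *Nusap1* at 105.3 and 52.8 CPM, *Top2a* at 262.2 and 160.8 CPM (-0.71) and *Mki67* at 118.4 and 77.5 CPM (-0.61), and *Cdc20* had the highest G2/M ratio (46.2 and 52.6 CPM, 0.19). *Cdk1* (0.13) and *Ccnb1* (-0.15) lay between these. With the cells of over 6000 genes added the G2/M median of this comparison was 0.27.

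Endothelial cells had the lowest medians in Enl-T1 of the 4 classes. The S-phase sum was 2127.1, 1301.1 and 1794.3 CPM and the G2/M sum 4624.8, 2535.5 and 2851.1 CPM. In Enl-T1 against Enl-WT 0 members were higher, and 16 S-phase and 22 G2/M members were lower, against 5.91% higher and 29.4% lower among all genes, with medians of -0.80 and -0.90. *Mki67* was at 427.4 and 134.2 CPM (-1.67) and *Dtl* at 101.3 and 33.5 CPM (-1.60), while *Slbp* was at 119.6 and 120.1 CPM (0.01) and *Cks2* at 209.6 and 187.3 CPM (-0.16). *Ccnb1* (90.7 and 42.5 CPM, -1.09), *Mcm5* (96.2 and 47.2 CPM, -1.03), *Top2a* (543.9 and 282.7 CPM, -0.94), *Pcna* (237.8 and 134.2 CPM, -0.83) and *Cdk1* (203.4 and 127.6 CPM, -0.67) were lower as well. In treated against untreated Enl-T1 8 S-phase members were higher and 0 lower, and 6 G2/M members were higher and 2 lower, against 9.43% higher and 18.0% lower among all genes, with medians of 0.43 and 0.23 beside -0.06. *Ung* was at 10.9 and 28.0 CPM (1.35) and *Cdc20* at 56.6 and 111.8 CPM (0.98), and *Mcm5* (1.02), *Ccnb1* (0.65), *Cdk1* (0.63) and *Pcna* (0.30) were also at higher levels. *Nusap1* (91.9 and 56.5 CPM, -0.70), *Mki67* (134.2 and 88.3 CPM, -0.60), *Top2a* (282.7 and 198.5 CPM, -0.51) and *Dtl* (33.5 and 26.8 CPM, -0.32) were at lower levels. In male cells alone the endothelial S-phase median of this comparison was -0.09.

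Across the 4 classes, 6 S-phase members (*Clspn*, *Dtl*, *E2f8*, *Mcm2*, *Mcm3* and *Mcm5*) and 7 G2/M members (*Anln*, *Cenpe*, *Cenpf*, *Kif11*, *Mki67*, *Smc4* and *Top2a*) were lower in Enl-T1 than Enl-WT in every class, as were 10.2% of the 8553 genes that entered in all 4. With TDI-11055, *Cdc45*, which completes the active helicase, and *Rrm2* were higher than in Enl-T1 in every class, and 0 members were lower in every class, against 0.729% and 0.498% of 8228 genes. The comparisons share the Enl-T1 library, so a low count there lowers 1 ratio and raises the other.

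The counts of Enl-T1 against Enl-WT depended on the scaling. Scaled by the median ratio of all genes, S-phase members higher and lower numbered 2 and 4 in NP1-like cells, 1 and 4 in stroma, 0 and 7 in ureteric cells and 0 and 10 in endothelium. G2/M members numbered 10 and 4, 0 and 6, 1 and 7, and 0 and 15 in the same order. Of all genes, 17.0%, 14.9%, 13.4% and 13.5% were higher under this scaling, and 15.4% were lower in NP1-like cells, 13.1% in stroma and 12.1% in endothelium, with a smaller share in ureteric cells. Of all genes that passed the limit in NP1-like cells, 18.6% were higher in CPM and 52.4% after this scaling, and in the other classes 16.7% to 19.5% became 52.8% to 56.0%. The G2/M median of NP1-like cells turned from -0.03 to 0.30, whereas that of stroma was -0.33, of ureteric cells -0.19 and of endothelium -0.59, and the S-phase medians were -0.07, -0.19, -0.29 and -0.49. Between treated and untreated Enl-T1 this scaling shifted the ratios by 0.06 or less in size. S-phase members higher and lower then numbered 5 and 0, 16 and 0, 9 and 0, and 8 and 0 in these classes. G2/M members numbered 0 and 14, 0 and 1, 0 and 10, and 8 and 1, against 7.06%, 10.0%, 6.61% and 11.5% higher and 7.75%, 12.4%, 10.2% and 15.7% lower of all genes.

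To see whether the spread among members went with a property that the choice of genes had not used, the length of the longest protein-coding transcript was taken for each member. The S-phase members had a median of 3267 bases (1518 to 5868) and the G2/M members a median of 3334 bases (692 for *Cks2* to 11130), with *Mki67* at 10061, *Top2a* at 5221, *Cdk1* at 4375 and *Ccnb1* at 2489 bases. In NP1-like cells the log2 ratio of Enl-T1 to Enl-WT was lower in longer G2/M members (Pearson's r = -0.76 and Spearman's rho = -0.70 over 29 genes, which share 2 libraries and are not independent). Pearson's r was -0.32 over the 22 S-phase members and -0.43 over 9621 genes with a length. For the G2/M members r was -0.67 in stroma, -0.66 in ureteric cells and -0.57 in endothelium, against -0.40, -0.51 and -0.38 for all genes. The 11 G2/M members under 2500 bases had a median log2 ratio of 0.30 in NP1-like cells and the 18 longer ones -0.43, beside -0.02 and -0.51 for shorter and longer genes of all kinds.

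Relative to genes of like length the median of Enl-T1 over Enl-WT in NP1-like cells was -0.01 for S-phase and 0.28 for G2/M members, in stroma -0.23 and -0.31, in ureteric epithelium -0.37 and -0.18, and in endothelial cells -0.56 and -0.52. The G2/M median of NP1-like cells was thus above that of genes of their length, and it was below it in the other classes. For treated over untreated Enl-T1 the medians relative to length were 0.20 and -0.65 in NP1-like cells, 0.82 and -0.12 in stroma, 0.53 and -0.31 in ureteric cells and 0.60 and 0.19 in endothelium, each with the sign it had as a plain ratio. The part of transcript length in these differences was not tested.

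**Figure D5:**
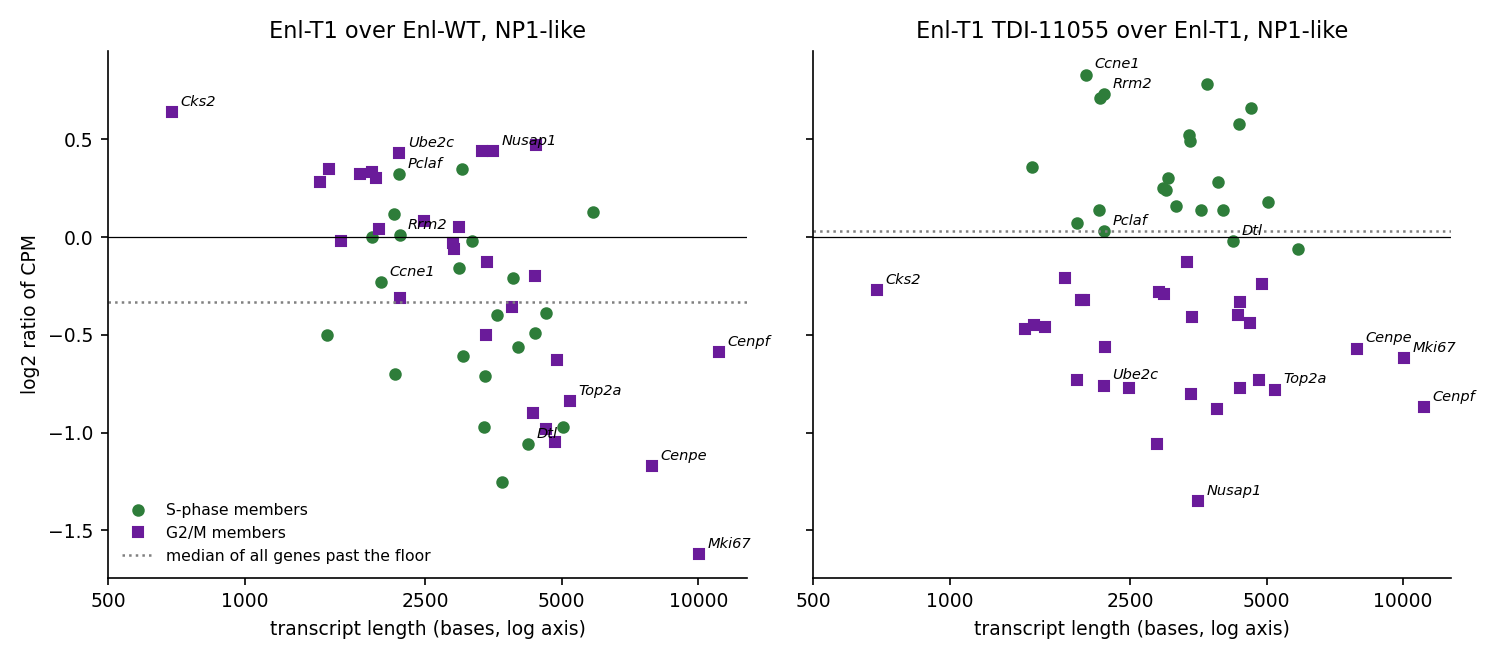
Log2 ratio of CPM in NP1-like cells (vertical axis) against transcript length in bases (horizontal, log axis) for S-phase members (green circles) and G2/M members (purple squares), Enl-T1 over Enl-WT on the left and treated over untreated Enl-T1 on the right, with the median of all genes as a dotted line. On the left the points fall from *Cks2* (0.64, 692 bases) to *Mki67* (-1.62, 10061 bases), and on the right all G2/M members lie under the dotted line at every length.

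To give a level in cycling cells, 5 members (*Hmmr*, *Cenpf*, *Ube2c*, *Top2a* and *Mki67*) were set apart, thinned cells with UMIs of at least 2 of them were taken as cycling, and the other 24 G2/M members were summed in them. Cycling cells made up 22.7%, 19.2% and 16.4% of NP1-like cells, 33.6%, 17.8% and 24.1% of stroma, 32.4%, 20.7% and 15.3% of ureteric epithelium and 46.2%, 21.4% and 19.8% of endothelial cells in Enl-WT, Enl-T1 and treated Enl-T1. Of the genes set apart, *Cenpf*, *Mki67* and *Top2a* were lower in Enl-T1 than Enl-WT in every class. With TDI-11055 the cycling shares of ureteric and endothelial cells were under those of untreated Enl-T1. Their G2/M-high shares stood 2.73 points (within counting error) and 16.8 points above instead. The 2 measures thus disagreed there, and the part of the choice of genes was not tested. The 24 genes stood at 5176.0, 5301.3 and 4103.1 CPM in the cycling NP1-like cells, at 6458.5, 6666.4 and 5541.8 CPM in those of stroma, at 4966.3, 5018.1 and 4267.0 CPM in those of ureteric epithelium and at 4644.9, 4483.5 and 4628.4 CPM in those of endothelium. Between Enl-T1 and Enl-WT the log2 ratios were 0.03 (-0.03 to 0.10), 0.05, 0.01 and -0.05. Since cells were called cycling from UMIs of the 5 members, a lower level per cell also lowers the share called, and the share and the level cannot be told apart. With TDI-11055 the log2 ratio to Enl-T1 was -0.37 (-0.44 to -0.30) in NP1-like cells, -0.27 in stroma, -0.23 in ureteric cells and 0.05 in endothelium, and among female NP1-like cells it was -0.05. The cycling cells numbered 96, 38 and 40 in the NP1-like class and 178, 55 and 23 in endothelium, in the order of libraries above. These intervals cover the counting of UMIs and not the spread between so few cells. Of 90 such ratios recomputed under other settings, 35 moved beyond their interval and 6 turned in sign. The S-phase members in the same cycling NP1-like cells stood at 3256.5, 2149.1 and 3450.0 CPM.

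For other genes of the same processes 3 more lists were counted. Of 34 other replication genes in NP1-like cells, 1 was higher and 10 lower in Enl-T1 than Enl-WT (median -0.30), no more than the 7.68% and 33.7% of all genes. Of 33 with TDI-11055 5 were higher and 0 lower than in Enl-T1 (median 0.21), against 7.77% and 6.90%. *Pole*, the leading-strand polymerase (23.0 and 11.6 CPM, -0.99), *Atad2* (170.4 and 85.8 CPM, -0.99), *Chaf1a*, which loads histones behind the fork (64.5 and 34.7 CPM, -0.90), *Pold1* (-0.91) and *Orc1* (-1.03, -2.48 to 0.29) were lower in Enl-T1 and *Rad51ap1* was higher (18.5 and 30.9 CPM, 0.74). With TDI-11055 *Pole2* (0.90), *Gins1* (0.86), *Rfc5*, of the clamp loader (28.1 and 48.7 CPM, 0.79), *Tk1* (0.68) and *Rpa2* (0.67) were higher. In the other classes 12 of 34 (stroma), 17 of 33 (ureteric epithelium) and 19 of 34 (endothelial) were lower in Enl-T1, with 0 higher, against 29.9%, 27.7% and 29.4% lower among all genes. With TDI-11055 22, 17 and 19 were higher, against 12.0%, 7.21% and 9.43%.

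Of 52 other mitosis genes in NP1-like cells, 3 were higher and 12 lower in Enl-T1 (median -0.16), against 7.68% and 33.7% of all genes, so the lower count was under that of all genes. Of 50 with TDI-11055 0 were higher and 27 lower than in Enl-T1 (median -0.61), against 7.77% and 6.90%. *Cdca2* (53.6 and 23.1 CPM, -1.21), *Ckap5* (183.5 and 92.0 CPM), *Prr11* (-0.93), the condensin subunit *Smc2* (225.8 and 121.7 CPM, -0.89) and *Incenp*, the scaffold of the passenger complex (-0.88), were lower in Enl-T1. *Cdkn3* (4.06 and 11.6 CPM, 1.51), *Spc25*, of the kinetochore (63.1 and 108.1 CPM, 0.78), and *Pbk* (0.75) were higher. With TDI-11055 *Kif14* (9.49 and 3.21 CPM, -1.57), *Depdc1a* (-1.34), *Aspm*, a spindle pole protein (28.1 and 11.5 CPM, -1.29), *Ckap2* (-1.20) and *Gtse1* (-1.19) were lower. In stroma, ureteric epithelium and endothelial cells 28, 27 and 40 of these genes were lower in Enl-T1 with 0 higher, against 29.9%, 27.7% and 29.4% lower among all genes. With TDI-11055 the counts higher and lower were 4 and 4, 1 and 5, and 10 and 5, against 12.0%, 7.21% and 9.43% higher and 11.0%, 9.72% and 18.0% lower.

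Among 31 regulators of G1 and of exit from the cycle, 3 were higher and 10 lower in Enl-T1 in NP1-like cells, over 27 genes that passed 5 CPM, against 7.68% and 33.7% of all genes. *Cdkn1c*, the inhibitor p57 of cyclin-dependent kinases, was at 1010.6 CPM in Enl-WT, with 291.7 CPM in untreated and 830.5 CPM in treated Enl-T1, log2 ratios of -1.79 (-1.92 to -1.67) and 1.51 (1.39 to 1.63). *Ccnd2* (cyclin D2) was at 269.1, 512.9 and 392.8 CPM (0.93 and -0.38). *E2f1*, an activator of S-phase genes, was at 19.4, 9.90 and 16.4 CPM (-0.97 and 0.73), *Mybl2* (B-MYB) at 9.92, 5.36 and 11.3 CPM (-0.89 and 1.08) and *Foxm1* at 18.5, 11.1 and 7.74 CPM. *Cdkn1a* (p21, 4.96 and 9.49 CPM, 0.94, -0.16 to 2.12) and *Cdk6* (10.4, 19.0 and 9.06 CPM, 0.87 and -1.07) also had few counts, and *Lin54* was at 22.1 and 12.0 CPM (-0.88). With TDI-11055 6 of 26 were higher than in Enl-T1, among them *Lin37* (0.97) and *Ccnd3* (0.62), and 2 were lower, *Cdk6* and *Rbl1* (-0.70), against 7.77% and 6.90% of all genes.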

How the data were processed

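The deposited files held raw UMI counts per gene and barcode, which the authors had made from 10x Genomics 3′ libraries with Cell Ranger 6.1.2 on mouse genome build mm10, with no later filter on cells. The rows of the listed symbols were read from the 3 matrices, and no gene was dropped. Members, lists and alternatives were chosen with earlier results of these data known.

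Barcodes with 1000 to 6000 genes and at most 10% mitochondrial UMIs were kept, as in the study's methods. Doublets were left in. The automatic threshold of Scrublet (scanpy 1.11.5) marked 111, 1 and 1 barcodes of the Enl-WT, Enl-T1 and treated Enl-T1 libraries, under 0.5% in the last 2, so the 438, 362 and 333 barcodes of highest score (0.8% per 1000 barcodes) were removed as an alternative. Seurat 5.3.0 (with SeuratObject 5.2.0 and Matrix 1.6.5 under R 4.3.3) joined the libraries through anchors over 2000 variable genes, leaving out 806 cell cycle genes, of which 481 were left out for their correlation (above 0.2) with the lists alone, and 113 technical genes. Clustering used 30 principal components (resolution 0.5) for all cells and 20 (resolution 0.8) for each lineage. Clusters were named from 8 markers per class, so names can differ from the study's. Sub-clusters led by other markers were left out of a class (10.9% to 29.0% of the cells of stroma and 19.8% to 26.0% of ureteric epithelium). Of the nephron lineage only NP1-like cells entered the 4 main classes, 426 of 2249, 198 of 1302 and 244 of 1338 cells. A class entered the order of cell types with at least 50 cells.

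Thinning to 2000 UMIs left out 96, 15 and 20 cells. Levels are CPM of summed UMIs with exact Poisson intervals. Ratios have exact conditional binomial intervals, shares have exact Clopper-Pearson intervals, and differences of shares have Newcombe intervals, all at 95%. Reads carried molecular identifiers, but all intervals cover counting error only. A gene entered a comparison at 5 CPM or more. In NP1-like cells the genes named are, for each list and comparison, the 3 members of highest CPM in Enl-WT and the 3 of highest and lowest ratio. In the other classes they are the 1 highest and 1 lowest, and in every class *Mcm5*, *Pcna*, *Mki67*, *Top2a*, *Cdk1* and *Ccnb1*. Of the other lists up to 5 genes in each direction are named, and further members were named after their values were seen. Transcript lengths came from GENCODE M21 and promoters from RefSeq. Scripts used Python 3.11.15, numpy 2.4.6, pandas 2.3.3, scipy 1.17.1 and matplotlib 3.10.9 and were tested on simulated data.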

Additional observations from a re-analysis of the deposited data

Results flagged for a closer look

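The same contrast gave different G2/M values in different cell classes. None of these differences between classes was tested, because each group had 1 library. The G2/M-high share of Enl-T1 minus that of Enl-WT was 1.34 points in NP1-like cells, -19.4 in stroma, -13.8 in ureteric cells and -26.3 in endothelium, and the G2/M-high share of treated minus that of untreated Enl-T1 was -3.01, 18.2, 2.73 and 16.8 points in the same order. Within ureteric sub-clusters the treated share was lower in 6 of 6, unlike the 2.73 points of the class. The median G2/M log2 ratio of treated over untreated Enl-T1 was -0.47, -0.03, -0.17 and 0.23.

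Barcodes with over 6000 genes, which entered the comparisons only in an alternative, also carried these genes. Of 55 such barcodes in Enl-WT 34 were G2/M-high after thinning (61.8%), of 309 in Enl-T1 116 were (37.5%) and of 577 in treated Enl-T1 350 were (60.7%), against 45.6%, 31.0% and 45.5% of the kept cells. Their S-high shares were 36.4%, 31.1% and 51.5%.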

How the results depend on the processing

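With 1 library per group no library could be left out. No paired analysis was possible because the labels gave 1 sample per group. The alternatives of at least 1% mitochondrial UMIs, a second thinning, sub-clusters weighted as in Enl-WT, members under 2500 bases, whole lineages, ratios relative to genes of like length and levels in cycling cells in CPM of the other genes were chosen after seeing the data. Of the results recomputed none moved beyond its interval, and no count of calls by over 1.5 times, under a floor of 1 UMI (24 results), a floor of 10 CPM (24), removal of the highest Scrublet scores (52) or at least 1% mitochondrial UMIs (52). Outside these 52, this last alternative moved the G2/M-high share of treated Enl-T1 from 74.9% to 58.7% in NP2-like cells and from 45.5% to 36.5% in all kept cells. Male cells gave 48 of 52 results. Depth limits the shares, since the Enl-WT cells are the shallowest, and the cause of the changes below was not tested except where the alternative itself sets it. The other genes are all but mitochondrial, haemoglobin and ribosomal protein genes. T1/WT stands for Enl-T1 against Enl-WT and TDI/T1 for Enl-T1 TDI-11055 against Enl-T1.

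Share differences in points. Without thinning the G2/M differences for T1/WT were 19.4 in NP1-like cells, -12.3 in stroma, 7.91 in ureteric epithelium (turned) and 1.82 in endothelial cells (turned), and for TDI/T1 19.3, 34.4 and 18.8 in the first 3. The S-phase differences for T1/WT were 18.0, -3.95, 10.1 (turned) and -3.95. With thinning to 4000 UMIs, G2/M differences for T1/WT were -7.45 in NP1-like cells, -42.8 in stroma and -21.9 in ureteric epithelium, and S-phase differences -21.3, -39.2 and -23.2. With thinning to 1500 UMIs of the other genes the S-phase difference of stroma was -16.8. With at least 2 members the G2/M difference of stroma was -24.4, and with at least 4 the S-phase one was -16.3. With at most 5% mitochondrial UMIs the G2/M differences for T1/WT were -15.4 in NP1-like cells, -25.8 in stroma and -19.7 in ureteric epithelium, and in ureteric epithelium the G2/M one for TDI/T1 was -5.95 and the S-phase ones 7.34 for TDI/T1 and -20.6 for T1/WT. In male cells the G2/M difference was -11.2 in NP1-like cells for T1/WT and 1.76 in endothelial cells and 6.78 in stroma for TDI/T1, and the S-phase one was 17.0 in NP1-like cells and -12.4 in endothelial cells (turned) for TDI/T1 and -19.4 in stroma for T1/WT. With no upper limit on genes the G2/M difference of ureteric epithelium for TDI/T1 was 8.04, and over the whole lineage 7.30. With sub-clusters weighted as in Enl-WT, stroma had G2/M differences of -12.0 (T1/WT) and 9.78 (TDI/T1) and S-phase differences of -18.8 and 12.2, and ureteric epithelium -8.53 and -4.58, and -9.06 and 7.19. Over members under 2500 bases the G2/M differences for T1/WT were -18.1 in endothelial cells, -13.9 in stroma and -8.90 in ureteric epithelium, the S-phase ones -8.47, -9.93 and -8.78, and the S-phase one of ureteric epithelium for TDI/T1 10.9.

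Median log2 ratios. Under median-of-ratios scaling the G2/M medians for T1/WT were -0.59 in endothelial cells, -0.33 in stroma and -0.19 in ureteric epithelium and the S-phase median of stroma -0.19. Relative to genes of like length they were -0.52, -0.31, -0.18 and -0.23. In CPM of the other genes the S-phase median of stroma was -0.31. In female cells the T1/WT medians were 0.31 (G2/M, NP1-like), -0.50 (G2/M, endothelial) and -0.43 (S-phase, endothelial). In male cells they were -1.22 (S-phase, endothelial) and -0.19 (S-phase, stroma), and for TDI/T1 -0.40 (G2/M, stroma) and -0.09 (S-phase, endothelial, turned). With at most 5% mitochondrial UMIs the G2/M median of NP1-like cells for T1/WT was -0.85, and the S-phase medians for TDI/T1 were 0.14 in NP1-like cells, 0.18 in endothelial cells and 0.31 in ureteric epithelium. With no upper limit on genes the G2/M medians for TDI/T1 were 0.29 in stroma and 0.27 in ureteric epithelium (turned). At the first clustering level the G2/M median of NP1-like cells for TDI/T1 was -0.29, and over the whole ureteric lineage -0.02.

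Numbers of members counted as higher or lower. Among these settings the share of all genes past the limit was counted only under median-of-ratios scaling, and it is given with that scaling above. For T1/WT there were 17 in stroma in CPM of the other genes. Under median-of-ratios scaling there were 25 in endothelial cells, 11 in stroma and 15 in ureteric epithelium. Relative to genes of like length there were 8 in NP1-like cells, 21 in endothelial cells, 10 in stroma and 11 in ureteric epithelium, with at most 5% mitochondrial UMIs 27 in NP1-like cells, and in female cells 22 in endothelial cells. For TDI/T1 in NP1-like cells there were 11 when clustering on all variable genes, 9 with no upper limit on genes and 9 at the first clustering level.

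Log2 ratios of the level in cycling cells. The ratio of stroma for T1/WT, 0.05, turned to -0.02 in female cells, in male cells, with no upper limit on genes and with 1500 UMIs of the other genes, and to -0.11 at 4000 UMIs. It was 0.01 under a second thinning, 0.08 when clustering on all variable genes, 0.10 over the whole lineage and 0.19 in CPM of the other genes. In that CPM NP1-like cells, endothelial cells and ureteric epithelium had 0.24, 0.12 and 0.15. Female cells gave 0.12, 0.08 and 0.06 for T1/WT, and -0.05, -0.04 and -0.12 for TDI/T1. For T1/WT male cells gave -0.10 in ureteric epithelium, no upper limit on genes -0.15, and the whole lineage 0.05. At most 5% mitochondrial UMIs gave -0.19 in NP1-like and -0.16 in endothelial cells, 4000 UMIs gave -0.13 in NP1-like cells, and 1500 UMIs of the other genes and the first clustering level each -0.06. For TDI/T1 in NP1-like cells the ratio was -0.14 when clustering on all variable genes, -0.26 with no upper limit on genes, -0.17 with 1500 UMIs of the other genes, -0.25 at 4000 UMIs and -0.05 at the first clustering level. In ureteric epithelium it was -0.20 when clustering on all variable genes and over the whole lineage, -0.27 with at most 5% mitochondrial UMIs, 0.06 with no upper limit on genes (turned), -0.32 under a second thinning and -0.29 at 4000 UMIs. In stroma it was -0.21 in male cells and -0.14 with 1500 UMIs of the other genes, and in endothelial cells 0.14 with 1500 UMIs of the other genes and -0.05 at 4000 UMIs.

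Shares in Enl-WT at the ends of the order of cell types. The G2/M-high share of NP2-like cells was 84.9% with at least 2 members, 67.4% with at least 4, 94.9% when clustering on all variable genes, 54.4% over members under 2500 bases, 86.2% with at most 5% mitochondrial UMIs, 88.4% without thinning and 91.9% at 4000 UMIs. The S-high share of ureteric tip-like cells was 82.5%, 58.3%, 62.0% and 46.1% under the first 4 of these, 93.6% without thinning and 90.4% at 4000 UMIs. In podocyte-like cells the G2/M-high share was 10.6% with at least 2 members, 7.08% when clustering on all variable genes, 0% among female cells (upper limit 8.22%), 30.4% without thinning and 6.45% at 4000 UMIs. Their S-high share was 11.7% with at least 2 members, 0% among female cells (upper limit 8.22%) and with at most 5% mitochondrial UMIs (4.25%), 30.4% without thinning and 12.9% at 4000 UMIs.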

Other observations

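The cells with few mitochondrial UMIs stood apart in these genes. Of the kept cells with under 1% mitochondrial UMIs, 42 (Enl-WT), 120 (Enl-T1) and 731 (treated Enl-T1) could be thinned, and 95.2%, 71.7% and 69.9% of them were G2/M-high and 78.6%, 59.2% and 55.1% S-high. Among cells with 4 to 10% mitochondrial UMIs the G2/M-high shares were 43.5%, 27.2% and 26.5%. The nuclear transcript *Malat1* stood at 13.7, 11.2 and 6.0 UMIs per 2000 in the cells under 1%, against 31.3, 32.0 and 27.7 in those of 4 to 10%. Without these cells the G2/M-high share of all kept cells was 45.2%, 29.8% and 36.5%, where with them it was 45.6%, 31.0% and 45.5%, so the value of treated Enl-T1 moved most. The S-high share of treated Enl-T1 was 45.3% without them and 48.0% with them.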
